A study of Mus musculus with 8 samples.

Results

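The calpains and their inhibitor calpastatin were followed through 8 genes, *Capn1*, *Capn2*, *Capn3*, *Capn5*, *Capn6*, *Capn7*, *Capns1* and *Cast*. They were picked by gene symbol from the 55401 genes of the table. Their RNA was measured by bulk RNA-seq of whole tibialis anterior (TA) muscles, a muscle of the front of the lower leg, from 4 wild-type (WT) mice of the C57/Bl6 strain and 4 *mdx5cv* mice on the B6 background. All mice were male and 6 mo old. The *mdx5cv* mice are a model of Duchenne muscular dystrophy, with a chemically induced point mutation in *Dmd*, the gene of dystrophin. No treatment is named for either group. Values are normalized counts, that is, reads per gene divided by a size factor for each muscle, and all 8 genes were among the 13677 genes tested, whose normalized count averaged at least 10 over the muscles.

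The reads recovered per muscle ranged from 13862559 to 14921057 in WT and from 13175524 to 14502624 in *mdx5cv*. *Dmd* was lower in *mdx5cv*, with 3964 ± 388 normalized counts against 6954 ± 857 in WT (SD, n = 4), a log2 fold change of -0.81 (adjusted p = 0.000177 from limma). The 6 markers of skeletal muscle fibers, which include *Ckm* and *Acta1*, summed to between 2583350 and 2678977 normalized counts in WT and to between 1698869 and 2223128 in *mdx5cv*, so that muscle RNA was abundant in every library. Markers of other cells also moved with genotype. All 7 macrophage markers rose, and their sum went from 551–835 in WT to 4131–9954 in *mdx5cv*. Of the 7 fibroblast markers 6 rose, and their sum went from 6470–9822 to 23175–43805. All 6 markers of regenerating fibers rose, and 4 of 7 slow fiber markers rose while 1 fell. Of the regenerating fiber markers, *Mymk*, *Mymx* and *Chrng* averaged under 10 normalized counts in WT and passed the filter through *mdx5cv* alone. Among the other lists, 3 of 6 markers of muscle fibers, 3 of 8 of fast fibers, 4 of 5 of endothelial cells, 4 of 5 of Schwann cells and 3 of the 4 adipocyte markers tested fell, and no listed marker was at 0 in all 8 muscles. *Tnnt3*, which fell, is in both the muscle fiber and the fast fiber list. The adipocyte markers *Cidec* and *Lep*, which fell, averaged under 10 normalized counts in *mdx5cv* and passed the filter through WT alone. Over all genes tested 20.9% rose and 20.1% fell at an adjusted p under 0.05 from limma. In whole muscle, fewer cells of a type and less RNA per cell cannot be told apart.

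Calpains are cysteine proteases of the cytosol that are activated by calcium and cut their substrates at a limited number of sites rather than degrading them. The conventional enzymes, calpain 1 and calpain 2, each pair a catalytic subunit (*Capn1* or *Capn2*) with the small regulatory subunit *Capns1*, and both are held in check by calpastatin (*Cast*), which binds them when calcium is present. Calpain 3 (*Capn3*) is largely restricted to skeletal muscle, where it is anchored to titin, and its loss causes a recessive limb-girdle muscular dystrophy. *Capn5*, *Capn6* and *Capn7* belong to atypical calpains that lack the calcium-binding EF-hand domain of the conventional enzymes, and *Capn6* also lacks the catalytic cysteine. Calpain activity is controlled after translation by calcium, autolysis and calpastatin. RNA levels do not measure it.

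The promoters of 3 members are shown because they belong to genes of different expression, the widely expressed *Capn2*, the muscle calpain *Capn3* and the low-expressed *Capn6*. Each window is 300 bases long, from 250 bases before the annotated start site to 50 after it, and is given 5′ to 3′ on the strand of the gene (RefSeq, GRCm38.p6). *Capn2* lies at chr1:182517561-182517860 on the minus strand, the downstream of 2 annotated *Capn3* starts at chr2:120476659-120476958 on the plus strand, and *Capn6* at chrX:143827363-143827662 on the minus strand. Capitals mark matches on either strand to any of 4 motifs, and no match overlapped another in these windows. The motifs were TATAAA and its variant TATATA as TATA boxes, the E-box CANNTG, which the MyoD family binds among other factors, and the GC box CCGCCC.
Capn2: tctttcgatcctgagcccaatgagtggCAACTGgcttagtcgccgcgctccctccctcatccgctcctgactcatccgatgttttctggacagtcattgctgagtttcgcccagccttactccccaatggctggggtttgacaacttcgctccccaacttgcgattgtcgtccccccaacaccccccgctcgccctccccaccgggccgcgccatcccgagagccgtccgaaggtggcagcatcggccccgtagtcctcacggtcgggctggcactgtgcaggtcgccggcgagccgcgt
Capn3: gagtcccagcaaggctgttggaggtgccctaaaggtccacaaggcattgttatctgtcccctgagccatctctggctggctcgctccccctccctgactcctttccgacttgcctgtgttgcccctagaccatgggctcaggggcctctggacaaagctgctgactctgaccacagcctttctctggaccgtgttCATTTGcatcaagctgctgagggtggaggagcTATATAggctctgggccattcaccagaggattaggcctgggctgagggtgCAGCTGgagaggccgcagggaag
Capn6: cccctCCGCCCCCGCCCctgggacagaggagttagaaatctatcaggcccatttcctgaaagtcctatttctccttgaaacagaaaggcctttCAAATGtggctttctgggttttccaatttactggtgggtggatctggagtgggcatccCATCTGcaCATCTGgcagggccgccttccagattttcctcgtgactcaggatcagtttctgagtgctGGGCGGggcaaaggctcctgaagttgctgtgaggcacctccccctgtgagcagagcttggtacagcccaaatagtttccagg
The *Capn3* window held a TATATA that begins 23 bases before the start site, and E-boxes that begin 55 bases before and 27 bases after it. *Capn6* had 3 E-boxes, which begin 157, 99 and 91 bases before its start, and 3 GC boxes, which begin 245, 239 and 32 bases before it. *Capn2* had 1 E-box, 223 bases before its start. Of the 32851 promoters of this length in the table, 5.67% held TATATA, 13.6% TATAAA, 72.3% CANNTG and 35.7% CCGCCC, so E-boxes are common in windows of this size. CpG dinucleotides numbered 27 in the *Capn2* window, 4 in that of *Capn3* and 5 in that of *Capn6*, against a median of 7 over all promoters. Of the 8 members, 7 were matched in the table, and these matches in letters are not evidence of binding.

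The question was whether the RNA of this protease system differs between dystrophic and healthy muscle. In *mdx5cv* muscle *Capn6*, *Capn5*, *Capn1* and *Capn2* rose, *Capn3* and *Capn7* fell, and the small subunit *Capns1* and calpastatin did not pass the test. Thus 6 of the 8 members (75.0%) were called at an adjusted p under 0.05 from limma, against 40.9% of all genes tested. In the direction of a rise, 4 members were called and the background was 20.9%, and in the direction of a fall 2 members were called and the background was 20.1%. When the log2 fold change also had to reach 1 in either direction, *Capn6* was the 1 member called, whereas 13.6% of all genes were, 10.3% higher and 3.27% lower. The values of the groups did not overlap for the same 6 members, against 40.1% of all genes tested, 20.3% higher and 19.8% lower. The median log2 fold change was 0.23 over the members and 0.00 over all genes tested. Replicates are labelled by number only, and each was taken as 1 mouse. The p-values from limma set a group difference against the variation between these muscles, moderated by a variance trend over all genes tested.

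**Figure D1:**
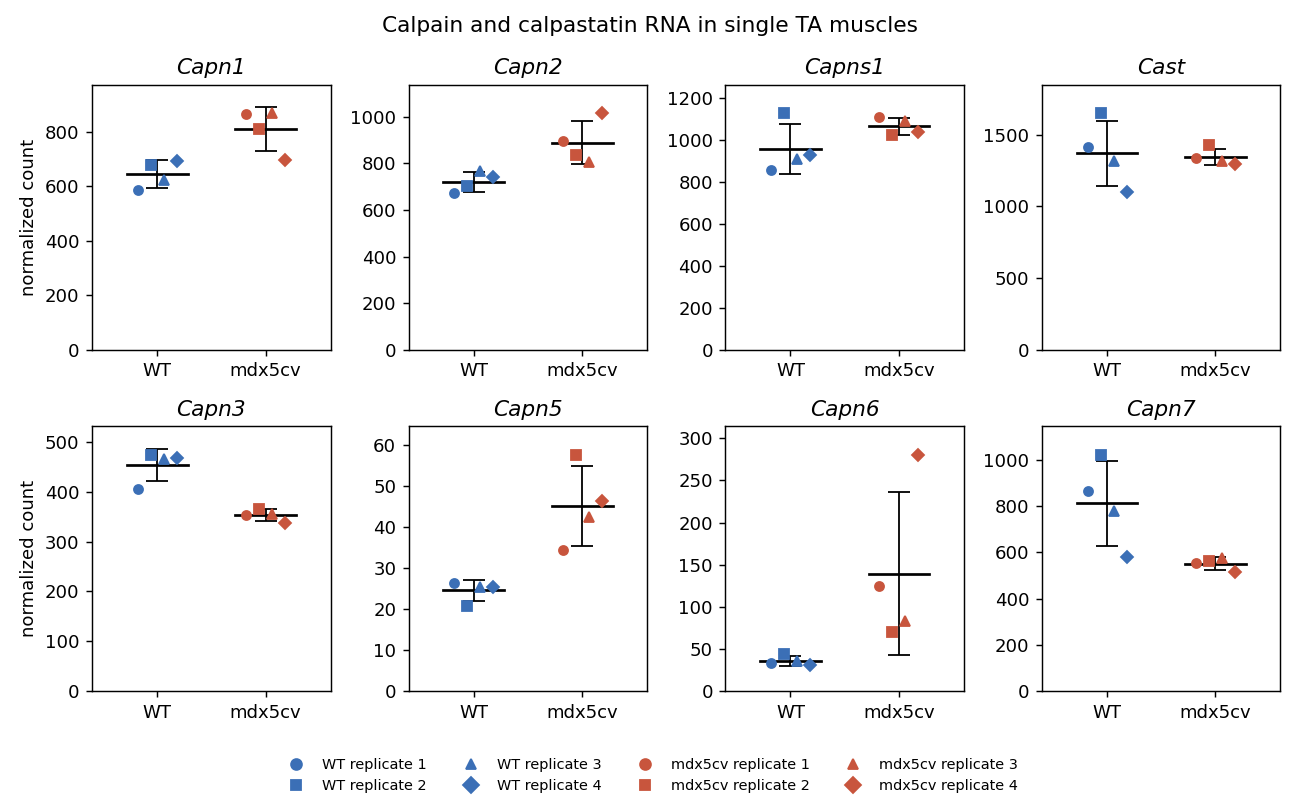
Normalized counts (vertical axis, from 0, a scale of its own in each panel) of the 8 members in single TA muscles of 4 WT (blue) and 4 *mdx5cv* (red) mice, with a marker shape for each replicate number, a bar at the mean and whiskers of 1 SD. The groups are apart for *Capn1*, *Capn2*, *Capn3*, *Capn5*, *Capn6* and *Capn7* and overlap for *Capns1* and *Cast*, and *mdx5cv* replicate 4 stands far above the others for *Capn6*.

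The catalytic subunits of the conventional calpains were both higher in *mdx5cv*, by an amount that depended on the scaling. *Capn1* (chr19:5988545-6015897, minus strand, GRCm38) had normalized counts of 584, 679, 622 and 693 in WT replicates 1 to 4 and of 863, 810.3, 867 and 698 in *mdx5cv* replicates 1 to 4. The groups were separated by a narrow margin, since the highest WT muscle and the lowest *mdx5cv* muscle, both replicate 4, were 693 and 698. The means were 644.7 ± 50.4 and 809.6 ± 79.1 (SD, n = 4), 25.6% higher in *mdx5cv*, and the log2 fold change was 0.33 (95% interval 0.10 to 0.55, adjusted p = 0.0253 from limma). This call was lost when WT replicate 1 or 3 or *mdx5cv* replicate 1, 2 or 3 was left out, with adjusted p values from limma of 0.0812, 0.0679, 0.0784, 0.0522 and 0.0746, respectively.

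*Capn2* (chr1:182467260-182517608, minus strand) had normalized counts of 672, 704, 766 and 742 in the WT muscles and of 895, 837, 806 and 1016 in the *mdx5cv* muscles. Every *mdx5cv* muscle lay above every WT muscle, and the highest value came from *mdx5cv* replicate 4, which was the lowest of its group for *Capn1*. The means were 720.9 ± 41.6 and 888.3 ± 92.6 (SD, n = 4), a log2 fold change of 0.30 (95% interval 0.08 to 0.52, adjusted p = 0.0329 from limma). Without WT replicate 1, *mdx5cv* replicate 1 or *mdx5cv* replicate 4 the adjusted p from limma was 0.0946, 0.0767 or 0.0765. Neither *Capn1* nor *Capn2* was called with median centring (adjusted p = 0.122 and 0.126) or with no variance trend (0.0559 and 0.0675), and with libraries scaled to equal totals their log2 fold changes were 0.68 and 0.65. Both subunits are widely expressed, and the summed macrophage and fibroblast markers rose in the same muscles, as given above. Their part in the result was not tested.

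The partner and the inhibitor of these enzymes showed no difference that passed the test. *Capns1* (chr7:30186936-30198811, minus strand), the small subunit shared by calpain 1 and calpain 2, had normalized counts of 856, 1128, 909.9 and 930.1 in WT and of 1111, 1026, 1089.6 and 1039 in *mdx5cv*. The log2 fold change was 0.16 (95% interval -0.06 to 0.39, adjusted p = 0.225 from limma). WT replicate 2 was above every *mdx5cv* muscle while the other 3 WT muscles were below them all, and without it the log2 fold change was 0.25 (adjusted p = 0.0407 from limma).

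*Cast* (chr13:74692368-74808810, minus strand) had normalized counts of 1417, 1649, 1314 and 1102 in WT and of 1335, 1424, 1315 and 1298 in *mdx5cv*. The 4 *mdx5cv* values fell inside the WT range, with a coefficient of variation of 4.20% against 16.6% in WT. The means were 1370.1 ± 227 and 1343 ± 56.4 (SD, n = 4). The log2 fold change of -0.01 (95% interval -0.27 to 0.24, adjusted p = 0.933 from limma) turned to 0.34 (adjusted p = 0.0249) when each library was scaled to the same total, a scaling that moved the median of all genes from 0.00 to 0.36. *Cast* shares 834 exonic bases with *Erap1* on the opposite strand, which had a log2 fold change of -0.43 (adjusted p = 0.0267 from limma). The strand setting of the counting is not given, so whether reads of these genes were told apart there is not known.

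Since calpastatin binds the conventional enzymes, the log2 ratio of each enzyme RNA to *Cast* RNA was computed within each muscle, where size factors have almost no effect. For *Capn1*/*Cast* the log2 ratio was -1.28, -1.28, -1.08 and -0.67 in WT and -0.63, -0.81, -0.60 and -0.89 in *mdx5cv*. The difference of the means was 0.34 with overlap between the groups (exact permutation test, two-sided p = 0.0857, adjusted over 6 ratios 0.171). *Capn2*/*Cast* differed by 0.31 (exact permutation p = 0.143, adjusted 0.214), and *Capns1*/*Cast* by 0.18 (exact permutation p = 0.200, adjusted 0.240). *Capn2* and *Capn1* kept nearly the same mean ratio to each other, 0.16 in WT and 0.13 in *mdx5cv* on the log2 scale (exact permutation p = 0.857, adjusted 0.857), with SDs of 0.11 and 0.28. With 1 muscle left out the differences ranged from 0.27 to 0.48 for *Capn1*/*Cast*, from 0.21 (without WT replicate 2) to 0.43 for *Capn2*/*Cast*, from 0.11 (without WT replicate 1) to 0.27 for *Capns1*/*Cast* and from -0.17 to 0.05 for *Capn2*/*Capn1*.

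The ratios with *Capn3* separated the groups. The log2 ratio *Capn3*/*Capn1* was -0.53, -0.52, -0.42 and -0.57 in WT and -1.28, -1.15, -1.28 and -1.05 in *mdx5cv*. The gap between the groups was several times the SD within either, 0.06 and 0.11, and the ratio was 0.622 of its WT level (difference -0.68, exact permutation p = 0.0286, adjusted 0.0857). *Capn3*/*Cast* was -1.80, -1.80, -1.49 and -1.24 in WT and -1.91, -1.96, -1.88 and -1.94 in *mdx5cv* (difference -0.34, exact permutation p = 0.0286, adjusted 0.0857). With 4 muscles against 4 the smallest two-sided p is 0.0286, and no ratio passed 0.05 after Benjamini-Hochberg adjustment over the 6. Passing would have needed several ratios at that smallest p, however far apart the groups of a given ratio lay. With 1 muscle left out *Capn3*/*Capn1* stayed between -0.73 and -0.65, whereas *Capn3*/*Cast* was -0.23 without WT replicate 4.

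**Figure D2:**
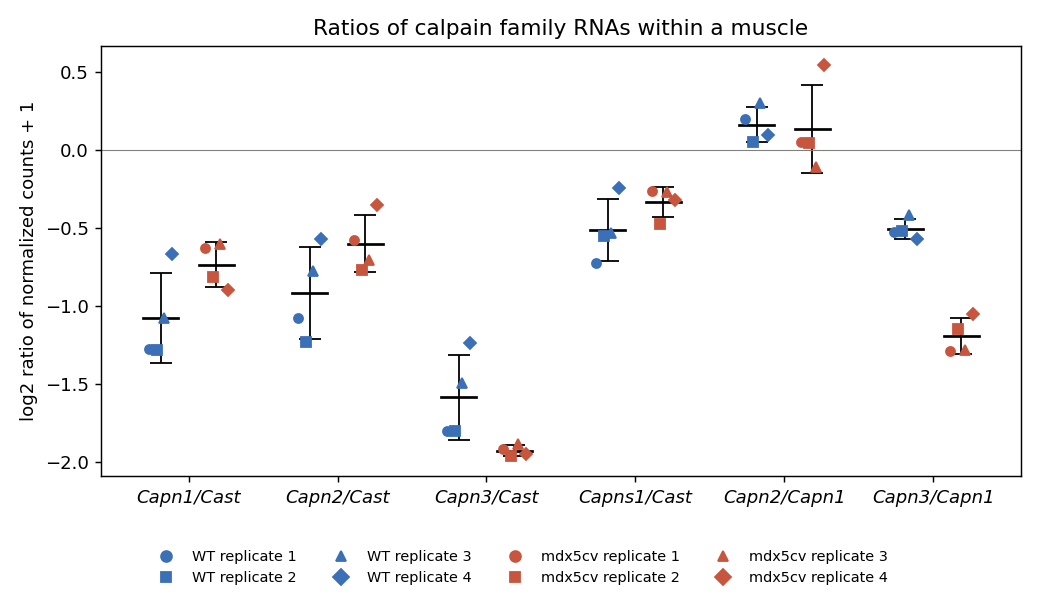
Log2 ratios of normalized counts (each plus 1) of 2 members within the same muscle (vertical axis) for the 6 ratios tested, in 4 WT (blue) and 4 *mdx5cv* (red) muscles, with a marker shape for each replicate number, a bar at the mean and whiskers of 1 SD. The *Capn3*/*Capn1* ratio lies between -0.57 and -0.42 in WT and between -1.28 and -1.05 in *mdx5cv*, the widest separation of the 6.

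*Capn3*, the muscle calpain (chr2:120456019-120504913, plus strand), fell in *mdx5cv*. Its normalized counts were 406, 474, 465 and 467 in WT and 354, 365, 356 and 336 in *mdx5cv*. WT replicate 1 was the low muscle of its group and still lay above all *mdx5cv* muscles. The means were 453.0 ± 31.8 and 352.8 ± 12.0 (SD, n = 4), a change of -22.1% and a log2 fold change of -0.36 (95% interval -0.57 to -0.15, adjusted p = 0.0108 from limma). It kept its call with any 1 muscle left out, but under equal totals, where the median of all genes stood at 0.36, its log2 fold change was -0.00 (adjusted p = 0.998).

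The summed muscle fiber markers were also lower in all 4 *mdx5cv* muscles, as given above. Most of that sum was *Ttn*, with means of 2093453 normalized counts in WT and 1676567 in *mdx5cv*. *Ttn* was not called (adjusted p = 0.638 from limma), although its values did not overlap. Its coefficients of variation were 2.68% in WT and 11.5% in *mdx5cv*. The limma fit with its variance trend gave it a standard error of 0.51 log2 units, so the missing call does not show an unchanged level. *Acta1* and *Des* were not called either, whereas *Ckm*, *Mb* and *Tnnt3* fell. The summed fast fiber markers overlapped between the groups. The part of the fibers in the *Capn3* result was not tested. *Capn3* shares 386 exonic bases with *Ganc*, a glucosidase gene on the same strand, whose normalized counts were 494.7 ± 35.4 in WT and 406.8 ± 51.9 in *mdx5cv* (SD, n = 4; log2 fold change -0.29, adjusted p = 0.0583 from limma). The table also lists AL935121.1 in the row between *Ganc* and *Capn3*, with 9 to 28 reads per muscle. Whether it shares exons with *Capn3* was not checked, so the level of *Capn3* is uncertain to that extent. Among 7641 genes whose mean was 100 normalized counts or more, the 4 whose log2 values over the 8 muscles, centred on their WT mean, lay nearest to *Capn3* were *Dmac1*, *Six4*, *Exoc4* and *Mrpl24*. Their root mean square distances were 0.0512, 0.0525, 0.0530 and 0.0539 log2 units against a median of 0.315 over these genes. This is a description of 8 muscles that share the genotype difference.

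*Capn7* (chr14:31336638-31371986, plus strand), whose product binds the ESCRT machinery of membrane sorting, was the member with the largest fall. Its normalized counts were 865, 1021, 779 and 580.5 in WT and 554, 562, 575 and 514 in *mdx5cv*. The WT muscles were spread widely, and replicate 4 was only just above the highest *mdx5cv* muscle. The means were 811.6 ± 184 and 551.4 ± 26.5 (SD, n = 4), a log2 fold change of -0.53 (95% interval -0.84 to -0.21, adjusted p = 0.0110 from limma). Under equal totals the log2 fold change was -0.17 (adjusted p = 0.315). The order of the WT muscles for *Capn7*, replicate 2 highest, then 1, 3 and 4, was also the order for *Cast*. *Capn7* shares 116 exonic bases with *Sh3bp5* on the opposite strand, which had 78 to 205 reads per muscle.

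*Capn5* (chr7:98121559-98178274, minus strand), a broadly expressed atypical calpain, rose from a low level. Its normalized counts were 26.4, 20.8, 25.4 and 25.4 in WT and 34.3, 57.5, 42.3 and 46.3 in *mdx5cv*. All *mdx5cv* muscles were higher, though the values rest on 19 to 61 reads per muscle. The means were 24.5 ± 2.49 and 45.1 ± 9.68 (SD, n = 4), a 1.84-fold difference and a log2 fold change of 0.84 (95% interval 0.38 to 1.29, adjusted p = 0.00644 from limma). Its call held under all 19 alternatives, with an adjusted p of at most 0.0245.

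*Capn6* (chrX:143802231-143827414, minus strand) showed the largest change of the 8. Its product lacks the catalytic cysteine, associates with microtubules and is known from placenta and embryonic muscle. The normalized counts were 33.2, 43.9, 35.4 and 30.7 in WT and 125.1, 69.8, 82.8 and 280.5 in *mdx5cv*. Every *mdx5cv* muscle was above every WT muscle, and within *mdx5cv* the values spanned a wide range, with a coefficient of variation of 69.4% against 15.9% in WT. The means were 35.8 ± 5.71 and 139.6 ± 96.9 (SD, n = 4), a log2 fold change of 1.72 (95% interval 0.996 to 2.45, adjusted p = 0.00134 from limma). The ratio of the means was 3.90 with all muscles and 2.59 without *mdx5cv* replicate 4, where the log2 fold change was 1.32. Its call held under all 19 alternatives, with an adjusted p of at most 0.00807.

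The summed markers of regenerating fibers had the same order of *mdx5cv* muscles as *Capn6*, replicate 4 highest, then 1, 3 and 2. Of the 6 single markers, *Myh3*, *Mymx* and *Chrng* also had this order, while *Myh8*, *Mymk* and *Myog* were highest in replicate 4 with another order of the rest. The list holds embryonic and neonatal myosin (*Myh3*, *Myh8*), the fusion proteins of myoblasts (*Mymk*, *Mymx*), *Myog*, which drives myoblast differentiation, and *Chrng*, the fetal acetylcholine receptor subunit. Its summed normalized count was 4814, 2175, 2999.5 and 8502 in *mdx5cv* replicates 1 to 4 and between 118 and 143 in WT. Most of each *mdx5cv* sum was *Myh3*, with 3346, 1279, 1820 and 5957, so the order of the sum largely follows that gene. *Mymx* was at 0 in all WT muscles, and *Mymk* and *Chrng* were at 0 in 3 of them and at 1.06 normalized counts in replicate 4. *Myh3*, *Myh8* and *Myog* had WT means of 39.8, 52.8 and 40.4 normalized counts and *Capn6* of 35.8. These counts are not divided by length and do not compare levels between genes. The summed macrophage, fibroblast and slow fiber markers were likewise highest in *mdx5cv* replicate 4, at 9954, 43805 and 2597, with another order of the rest. Within these lists *Cd68*, *Postn*, *Tnni1* and *Tnnc1* had the full order of *Capn6*, and the other genes did not. That order was therefore not particular to regenerating fibers. The part of these cells in the *Capn6* result was not tested. The 4 genes nearest to *Capn6* over the 8 muscles by the same measure were *Tubb2a*, a beta-tubulin, *Fabp5*, a fatty acid binding protein, *Lipa*, the lysosomal acid lipase, and *Gatm*, an enzyme of creatine synthesis. Their distances were 0.181, 0.248, 0.257 and 0.258 log2 units, against a median of 1.42. All 4 averaged under 100 normalized counts in WT and reached the minimum mean of 100 through *mdx5cv* alone. The distance includes the genotype difference, which all 4 share with *Capn6*, so it does not single out likeness between muscles of 1 group.

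**Figure D3:**
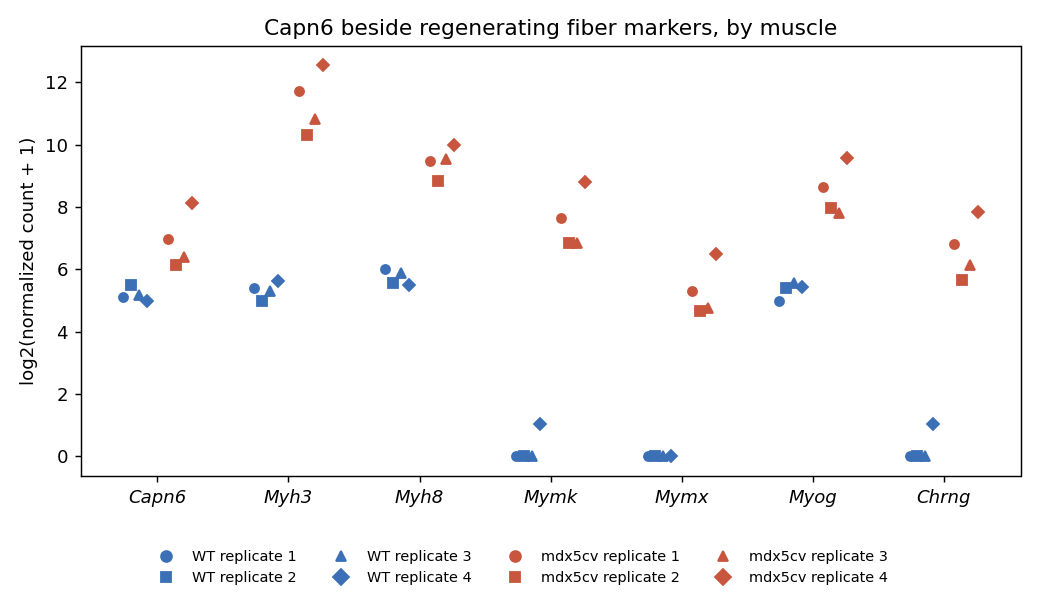
Log2(normalized count + 1) (vertical axis) of *Capn6* and of the 6 regenerating fiber markers in 4 WT (blue) and 4 *mdx5cv* (red) muscles, with a marker shape for each replicate number. For *Capn6* and each marker all *mdx5cv* points lie above all WT points and *mdx5cv* replicate 4 is the highest, and *Mymx* lies at 0 in all 4 WT muscles.

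Levels of different genes were set side by side as normalized counts per kb of annotated exon. In WT the small subunit *Capns1* was the most abundant member, with a mean level of 386 per kb. It was followed by *Capn1* at 193, *Capn7* at 166, *Cast* at 119, *Capn2* at 114 and *Capn3* at 90.2 per kb, and far below by *Capn6* at 4.59 and *Capn5* at 4.47. The ranges of *Capn1* and *Capn7*, of *Capn7* and *Cast*, of *Capn7* and *Capn2*, of *Cast* and *Capn2* and of *Capn6* and *Capn5* overlapped in WT. In *mdx5cv* the mean levels per kb were 430.5 for *Capns1*, 242 for *Capn1*, 140.0 for *Capn2*, 117 for *Cast*, 113 for *Capn7*, 70.2 for *Capn3*, 17.9 for *Capn6* and 8.23 for *Capn5*. *Capn2* there stood above *Capn7* in every muscle, the reverse of the order of the WT means, and the ranges of *Cast* and *Capn7* and of *Capn6* and *Capn5* overlapped. The creatine kinase gene *Ckm* had 63215 per kb in WT on the same scale. The order rests on the length used. With the longest transcript in place of all exons, *Cast* and *Capn2* had higher WT levels than *Capn1* and *Capn7*, since more of their annotated exon length lies outside that transcript. The mean of *Capn2* was then above that of *Capn7* in both groups, so the reversal between them depends on the length used.

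**Figure D4:**
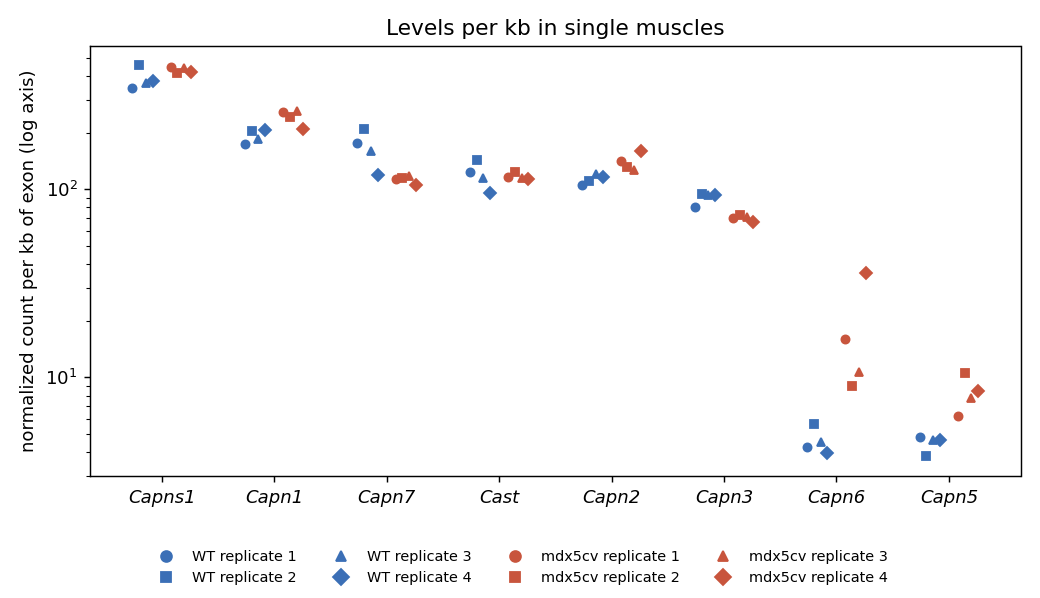
Normalized counts per kb of annotated exon (vertical log axis) of the 8 members in 4 WT (blue) and 4 *mdx5cv* (red) muscles, ordered by the WT mean, with a marker shape for each replicate number. *Capns1* is highest in both groups, and *Capn6* and *Capn5* lie more than a factor of 10 below the other members in WT.

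The rest of the calpain family added little RNA. No read of *Capn8* or *Capn9*, which are known from stomach, or of *Capn13* was found in any muscle, which allows up to 3 reads each per library. *Capn11* had at most 22 reads, *Capn12* at most 5 and *Capns2*, a second small subunit gene, at most 9, and these 3 were below the filter for the limma test. Without that filter, and in DESeq2, *Capns2* was called higher (adjusted p = 0.00158 and 0.00655), on 0, 1, 0 and 0 reads in WT and 9, 2, 7 and 8 in *mdx5cv*. *Capn10* had 52.8 ± 8.76 normalized counts in WT and 57.4 ± 7.38 in *mdx5cv* (SD, n = 4; log2 fold change 0.12, adjusted p = 0.608 from limma). *Capn15*, an atypical calpain with zinc fingers, rose. Its normalized counts were 73.3, 76.8, 92.9 and 89.0 in WT and 133, 112, 154 and 125 in *mdx5cv*, without overlap (log2 fold change 0.65, adjusted p = 0.00320 from limma). Of the 2 genes of this list that passed the filter, 1 was therefore called by limma, against 40.9% of all genes tested. Values did not overlap for 40.1% of all genes tested, and 2 genes are too few for a comparison with these shares.

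Of 14 calpain substrates known from textbooks, 8 rose and none fell, against 20.9% and 20.1% of all genes tested, and their median log2 fold change was 0.49 against 0.00. *Bid* and *Cdk5r1* averaged under 10 normalized counts in WT and passed the filter on low values through *mdx5cv* alone, and without them 6 of 12 rose, with a median of 0.31. Talin (*Tln1*) and vinculin (*Vcl*), which link integrins to actin, and the actin crosslinker filamin A (*Flna*) rose, with log2 fold changes of 0.44, 0.54 and 0.53. The phosphatase *Ptpn1* had 0.59. Larger rises were those of vimentin (*Vim*), the intermediate filament of mesenchymal and regenerating cells, at 2.02, and ezrin (*Ezr*) at 2.50. *Cdk5r1*, whose product p35 is cut by calpain into a longer-lived activator of Cdk5, had a log2 fold change of 2.95, and the pro-apoptotic *Bid* had 1.74. These last 2 rest on low counts, since *Cdk5r1* had 2.19 to 7.42 normalized counts in WT and 20.8 to 65.5 in *mdx5cv*, and *Bid* had 1.15 to 8.47 and 11.1 to 24.8. Adjusted p values of the 8 from limma ranged from 5.86e-06 for *Vim* to 0.0206 for *Flna*. *Flna* lost its call without WT replicate 1 (adjusted p = 0.0611) or 3 (0.0661) and with no variance trend (0.0572), and its log2 fold change was 0.35 without *mdx5cv* replicate 4. The 6 that were not called were *Sptan1*, *Flnc*, *Des*, *Ptk2*, *Ctnnb1* and *Ppp3ca*, with log2 fold changes from -0.23 to 0.18.

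Proteins that bind calpain 3 or are cut by it were divided. Dysferlin (*Dysf*), which reseals the membrane of muscle fibers, and the giant scaffold protein *Ahnak* rose, with log2 fold changes of 0.40 (adjusted p = 0.0161 from limma) and 0.78 (adjusted p = 0.000212). Myospryn (*Cmya5*) and aldolase A (*Aldoa*) fell, with log2 fold changes of -0.49 (adjusted p = 0.0456) and -0.62 (adjusted p = 0.0396). Titin (*Ttn*) had -0.33 (95% interval -1.43 to 0.77, adjusted p = 0.638) although its values did not overlap. The calcium release channel *Ryr1* had -0.00 (adjusted p = 0.997). Thus 2 of the 6 rose and 2 fell, against 20.9% and 20.1% of all genes tested, with a median of -0.16. A further gene ID with the symbol *Aldoa* had at most 17 reads and was not tested. The falls were near the threshold. *Cmya5* lost its call on leaving out any muscle but *mdx5cv* replicate 4, with adjusted p values from 0.0542 to 0.113, and *Aldoa* on leaving out any but *mdx5cv* replicates 2 and 4, with 0.0536 to 0.102. *Dysf* lost its call without WT replicate 3 (0.0538) or *mdx5cv* replicate 1 (0.0542) and with median centring (0.0587).

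**Figure D5:**
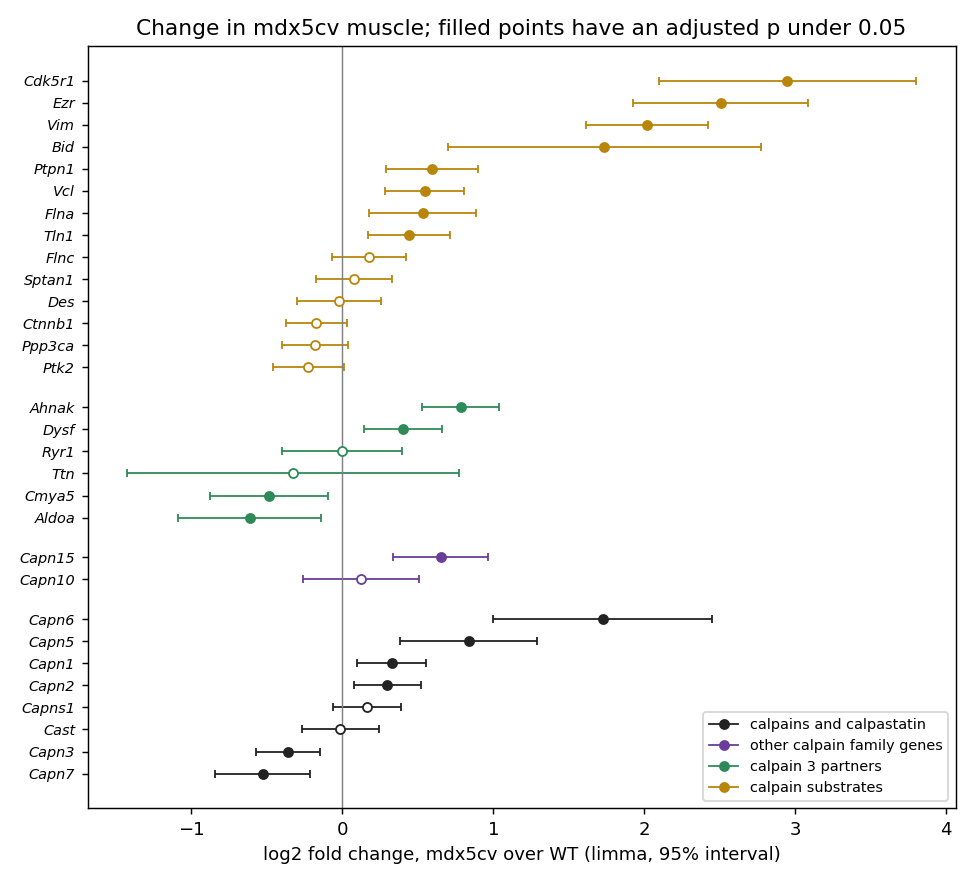
Log2 fold changes of *mdx5cv* over WT from limma (horizontal axis) with 95% intervals for the 8 members (black), the 2 other family genes tested (purple), 6 calpain 3 partners (green) and 14 substrates (gold), where filled points have an adjusted p under 0.05 over all genes tested. *Capn6* has the largest change of the members at 1.72, *Cast* lies at -0.01 (0.34 under equal totals), and *Cdk5r1* at 2.95 is the highest point of all.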

How the data were processed

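RNA was sequenced from 8 TA muscles, 4 WT and 4 *mdx5cv*, grouped by the genotype in the labels. The values the authors deposited for 55401 genes are a signal, reads scaled by 1 size factor per muscle, from stranded total RNA libraries. The submitters' processing notes name Trim Galore 0.6.4, STAR 2.6.0c, SAMtools 1.9, featureCounts, DESeq2 1.26.0, R 3.6.2 and the mm10 genome, with FastQC and MultiQC 1.6. The strand setting and the annotation release are not given in the sources used here. Gene IDs were matched to GENCODE M21 on GRCm38, with 55141 found.

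Division by the smallest step of each column gave whole reads for 100% of values (tolerance 0.001 reads). The 13677 genes averaging at least 10 were fitted in limma 3.58.1 (R 4.3.3), after log2(normalized count + 1), which understates the change of low genes. The fit used a variance trend, and p values were adjusted by Benjamini-Hochberg over these genes. Alternatives on the recovered reads were the quasi-likelihood test of edgeR 4.0.16, and DESeq2 1.42.0. At an adjusted p under 0.05 limma called 5597 genes, 2854 higher and 2743 lower, edgeR 2869 and 2681, and DESeq2 3159 and 2751 of 19094. Ratios were tested by exact permutation with Python 3.11.15 and scipy 1.17.1. The fit was tested on simulated data. Replicates differed by more than sampling noise (chi-square per degree of freedom 8.59 to 38.4).

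The genes named are the 8 members, called genes of the pathway lists, the 4 genes most alike to *Capn3* and *Capn6*, *Dmd*, and markers near 0. Genes overlapping members, uncalled list genes, *Ckm* and *Acta1* were added later. The members and lists were chosen with earlier results of these data known. Among the members depth limits *Capn5* and *Capn6* most, and among the lists *Bid*, *Cdk5r1* and *Ezr*. Alternatives were other pseudocounts, filters, scalings, variance models, a replicate block, left-out replicates and, for levels, the longest transcript.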

Additional observations from a re-analysis of the deposited data

Results flagged for a closer look

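In 2 sets of 4 muscles a single muscle lay far from the others by Dixon's 95% criterion. WT replicate 1 had a log2(normalized count + 1) of 8.67 for *Capn3*, while the other WT muscles had 8.87 to 8.89. WT replicate 2 had 4.45 for *Capn5*, while the others had 4.72 to 4.77. Both muscles were lower than the rest of their group. Of 28 sets examined, 1.4 would be expected by chance at about 1 in 20, and the calls of *Capn3* and *Capn5* held without these muscles.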

How the results depend on the processing

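The deposited values carry no strand or transcript information, and shares of cell types were not measured. *Capn5*, *Capn6* and *Capn15* kept their calls under all 19 alternatives, and *Capn3* and *Capn7* under 18, with equal totals as the exception. The log2 fold change of *Cast*, -0.01, turned to 0.34 under equal totals and, on leaving out WT replicate 1, WT replicate 2 and *mdx5cv* replicate 4, to 0.0063, 0.079 and 0.0015. It ranged from -0.114 to 0.0793 with 1 muscle left out. *Capns1* was called under equal totals (0.52, adjusted p = 0.00368). *Capn2* missed the threshold with no filter on low values (adjusted p = 0.0563). The causes of these changes were not tested. Members called higher numbered 4, but 2 with median centring, 2 with no variance trend and 1 when the log2 fold change also had to reach 1 in size, and 2 to 5 with 1 muscle left out. Members called lower numbered 2, but 0 under equal totals and 0 at that fold change. Other family genes called higher numbered 1, but 2 with no filter, 2 with DESeq2 and 0 at that fold change. Substrates and partners called higher numbered 10 of 20, but 4 at that fold change, *Bid* and *Cdk5r1* among them, against 10.3% of all genes tested. With at least 10 in every muscle 7 were called, and *Bid*, *Cdk5r1* and *Ezr* were then not tested. Those called lower numbered 2, but 0 with no filter, 0 under equal totals, 4 with median centring, 0 at that fold change and 0 to 2 with 1 muscle left out. Equal totals gave 5444 higher and 820 lower genes in all (39.8% and 6.00% of genes tested), and median centring 2426 and 3469 (17.7% and 25.4%). The shares were 19.8% and 18.0% with no variance trend, 12.0% and 9.28% with no filter, and 16.5% and 14.4% in DESeq2. With 1 muscle left out 17.7% to 20.9% were higher and 16.4% to 19.2% lower. At a fold change of that size 10.3% were higher and 3.27% lower. The background thus moved with the setting. With the longest transcript in place of all exons, WT means per kb were 210.7 for *Capn1*, 223.5 for *Capn2*, 142.7 for *Capn3*, 5.45 for *Capn5*, 7.89 for *Capn6*, 597.5 for *Capns1* and 266.5 for *Cast*. Deviations of WT and *mdx5cv* muscles with the same replicate number correlated at 0.05, 0.03, 0.07 and 0.15, so the number was not taken as a pairing. With the replicate number as a block, 4 members were higher and 2 lower, 10 and 2 substrates and partners were higher and lower, and no call of a member, of *Capn15* or of a called substrate or partner changed. The block gave 2880 higher and 2736 lower genes in all.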
